A study of Homo sapiens with 12 samples.

Results

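The peaks of histone H3 acetylated at lysine 27 (H3K27ac, a mark of active promoters and enhancers) at 4 transcription factor genes of germinal-centre B cells, IRF8, SPIB, POU2AF1 and MEF2B, were described in clones of the lymphoma line SUDHL4. Overlapping peaks of the 6 deposited lists were first combined into merged regions, of which those inside a fixed window around each gene on hg19 were kept. The windows were chr16:85900000-86050000 (150 kb) for IRF8, chr19:50900000-50950000 (50 kb) for SPIB, chr11:111200000-111300000 (100 kb) for POU2AF1 and chr19:19240000-19300000 (60 kb) for MEF2B. They held 43 of the 48876 merged regions: 8 at IRF8, 9 at SPIB, 16 at POU2AF1 and 10 at MEF2B. No merged region crossed the end of a window.

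SUDHL4 is a line from a diffuse large B-cell lymphoma, and its cells are of germinal-centre type. All 6 clones were grown from single cells after CRISPR/Cas9 editing and kept as stable lines. The EP300-KO clones were cut in EP300 with guides against exon 17 (clone 1) and exon 24 (clone 2), the CREBBP-KO clones in CREBBP with guides against exon 15 (clone 1, whose name carries another exon number) and exon 20 (clone 2), and the 2 WT clones at the neutral site in PPP1R12C. EP300 and CREBBP are paralogous histone acetyltransferases, both of which can place this mark. The comparisons ask how the mark at these genes differs when either enzyme is absent. Each genotype is 2 clones, so differences between genotypes and between single clones can hardly be separated, and the p-values measure only the spread between these clones. The lists run from 35054 to 46940 peaks and from 26.1 to 35.1 Mb of covered sequence, with both EP300-KO lists at the low end (26.1 and 26.2 Mb) and WT at 33.9 and 31.3 Mb. Peak lists do not show whether EP300 or CREBBP is disrupted. As a check of the cell type, 5 of 5 markers of B cells and germinal-centre B cells (CD79A, CD79B, MS4A1, BCL6, MME) had a peak within 2 kb of the start site in all 6 clones, and 0 of 7 markers of plasma, T, myeloid and liver cells had one in any clone.

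The 4 genes act at different points of the same programme. IRF8 is an interferon regulatory factor that binds DNA poorly alone and is recruited to composite elements by the ETS-family factors PU.1 and SPIB. SPIB is the B-cell ETS factor related to PU.1. POU2AF1 (OCA-B, BOB.1) is a coactivator that the POU factors OCT1 and OCT2 recruit to octamer sites. Mice that lack it form no germinal centres. MEF2B is a MADS-box factor that activates BCL6 in germinal-centre B cells and is mutated in a share of lymphomas.

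Promoter sequences of the RefSeq table (GRCh38.p14, 250 bases before to 50 bases after a gene's start) are shown for the genes whose start-site peaks are described below, because each frames a place where peaks began, ended or ran through. Capitals mark a motif found by search on both strands: the octamer ATGCAAAT, the TATA element TATAAA, the ETS-IRF composite element GGAANNGAAA and the MEF2 box were looked for. The MEF2B entry (chr19:19170214-19170513, minus strand) holds an octamer that ends 74 bases before the start, 28 CpG dinucleotides and 71.0% G or C.
MEF2B: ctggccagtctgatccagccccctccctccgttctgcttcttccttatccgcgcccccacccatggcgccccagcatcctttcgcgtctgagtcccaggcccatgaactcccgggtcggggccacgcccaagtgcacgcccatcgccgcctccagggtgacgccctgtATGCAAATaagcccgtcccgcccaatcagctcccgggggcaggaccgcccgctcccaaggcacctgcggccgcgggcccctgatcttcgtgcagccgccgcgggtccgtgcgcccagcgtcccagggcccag
The SPIB entry (chr19:50418688-50418987, plus strand) holds a TATA element that ends 23 bases before the start and 11 CpG dinucleotides.
SPIB: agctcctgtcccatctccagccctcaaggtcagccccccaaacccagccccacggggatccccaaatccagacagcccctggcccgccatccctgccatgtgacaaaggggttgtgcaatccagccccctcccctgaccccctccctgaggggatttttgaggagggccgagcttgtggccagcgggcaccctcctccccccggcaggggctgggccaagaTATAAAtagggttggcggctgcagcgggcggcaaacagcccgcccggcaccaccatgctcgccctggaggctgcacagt
For IRF8 the table gives starts inside the gene, the first of them 3.67 kb after the gene's first base (chr16:85902580-85902879, plus strand), with 3 CpG dinucleotides and none of these motifs.
IRF8: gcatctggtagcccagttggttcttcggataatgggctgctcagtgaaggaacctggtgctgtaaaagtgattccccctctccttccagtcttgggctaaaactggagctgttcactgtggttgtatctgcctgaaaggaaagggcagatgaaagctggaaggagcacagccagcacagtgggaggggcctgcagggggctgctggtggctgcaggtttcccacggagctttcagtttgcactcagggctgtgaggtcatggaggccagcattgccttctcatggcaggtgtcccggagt
Among all 35116 entries of the table, 1.77% held the octamer, 11.5% the TATA element, 2.82% the composite element and 0.572% the MEF2 box. The median entry had 14 CpG dinucleotides and 58.7% G or C, and 26.2% had at least as many CpG dinucleotides as MEF2B. These matches describe letters and not bound sites.

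All 4 genes had H3K27ac peaks within 2 kb of the start site in all 6 clones, but the layout around it differed by gene. Of the 300 bases from 250 before to 50 after the hg19 start, all were covered in every clone at SPIB and POU2AF1. IRF8 had 137 and 122 of them covered in EP300-KO, 173 and 135 in CREBBP-KO and 300 and 158 in WT. MEF2B had 25 and 19 in EP300-KO, 30 and 118 in CREBBP-KO and 69 and 43 in WT. These counts depend on where the rounded start is set, above all at MEF2B, where the covered bases lie at the window's edges. Distances are given along the direction of transcription from hg19 start sites rounded to 0.1 kb, negative ones upstream. IRF8 had a domain over the first 13.3 kb of the gene, an isolated region about 10 kb upstream and another about 103 kb downstream. At SPIB the peaks were a start-site region and smaller ones between 4.4 kb upstream and 4.1 kb inside the gene, plus a region across and past the gene's 3' end. POU2AF1 had most of its marked sequence upstream of the start, in regions around 19, 30 and 37 kb away. MEF2B was marked almost from the start site to 17.9 kb inside the gene. In RefSeq's order of genes (GRCh38 distances, set beside the hg19 peaks without conversion), the last 0.92 kb before SPIB separate it from POLD1, so that the SPIB region 4.4 to 3.3 kb upstream falls in the POLD1 span. MYBPC2 begins 14.0 kb past the SPIB start, within the distances that the region at SPIB's 3' end spans. The POU2AF1 regions from 17 kb upstream outward fall in the span of BTG4. TMEM161A begins 31.8 kb past the MEF2B start, where MEF2B's farthest region lies, and the readthrough gene BORCS8-MEF2B overlaps MEF2B itself. A value given for a locus therefore includes sequence that another gene may share.

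**Figure D1:**
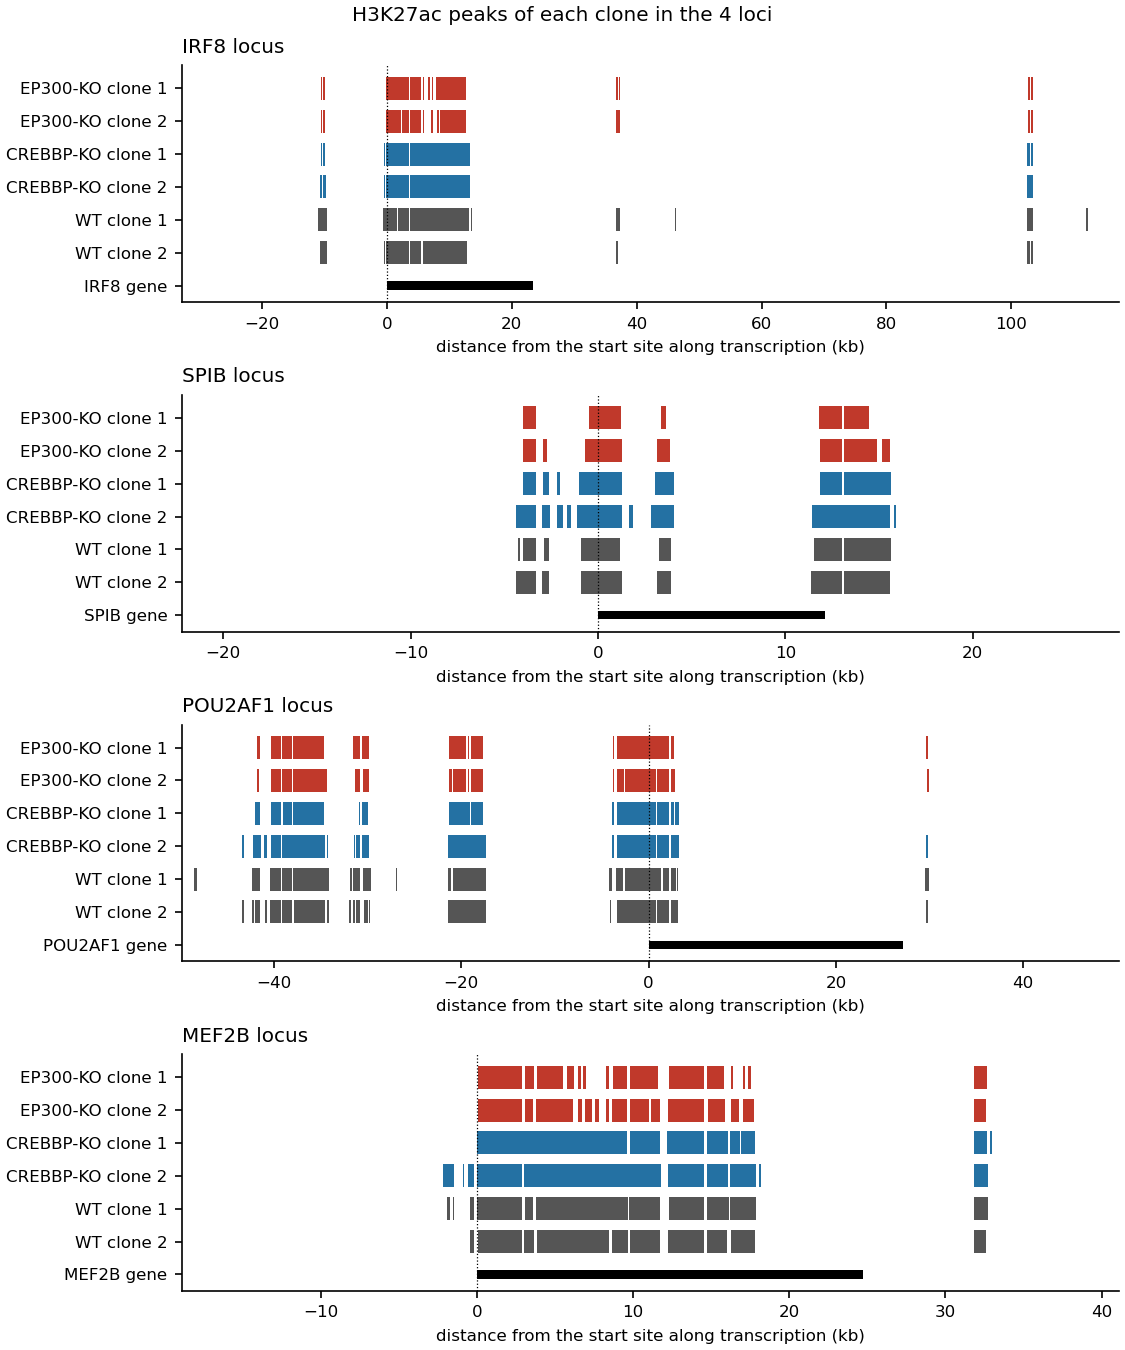
Peaks of each clone (boxes) in the 4 loci, against the distance from the gene's start site along transcription in kb; the black bar is the gene and the dotted line its start site. Peaks within 2 kb of the start are present in all 6 clones, and the IRF8 and MEF2B domains are cut into more pieces in the EP300-KO rows.

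Per length, MEF2B was the most marked locus and IRF8 the least. Peaks covered 22.4 to 32.0% of the MEF2B window, 16.4 to 19.8% of the POU2AF1 window, 10.4 to 20.3% of the SPIB window and 7.88 to 11.6% of the IRF8 window over the 6 clones. The POU2AF1 and SPIB ranges overlapped, and so did those of SPIB and IRF8. Within each clone, however, MEF2B had the largest share and IRF8 the smallest. POU2AF1 was above SPIB in every clone but CREBBP-KO clone 2 (19.4 against 20.3%). Of tiles of the same size with 500 or more covered bases in 2 or more clones, 0.922% had as many covered bases as MEF2B, 1.82% as POU2AF1, 5.04% as IRF8 and 6.11% as SPIB. By the authors' score, whose meaning is not stated, the best POU2AF1 peak was among the top 0.668 to 1.65% of its own list in every clone. It lay 0.6 to 1.3 kb upstream of the start. The best IRF8, SPIB and MEF2B peaks were among the top 1.66 to 13.1% of their lists.

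Of the 43 regions, 21 (48.8%) had a peak in all 6 clones, against 44.8% of all merged regions. Another 11 were seen in 1 clone alone, 5 of them in WT clone 1, 5 in CREBBP-KO clone 2 and 1 in CREBBP-KO clone 1. These 2 clones have the longest lists, and the EP300-KO clones had no region to themselves.

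In the EP300-KO clones every locus had fewer covered bases than in the WT clones, but so did many other tiles of the genome. IRF8 had 11818 and 11961 covered bases in EP300-KO, 14386 and 14991 in CREBBP-KO and 17459 and 14782 in WT. SPIB had 5213 and 6887 in EP300-KO, 8130 and 10155 in CREBBP-KO and 7840 and 8435 in WT. The groups EP300-KO and WT did not overlap at either gene. For POU2AF1 the EP300-KO clones had 16651 and 16359 covered bases, the CREBBP-KO clones 16795 and 19395 and the WT clones 19809 and 18563. MEF2B had 13421 and 15162 in EP300-KO, 17753 and 19199 in CREBBP-KO and 17940 and 17153 in WT. Both EP300-KO clones were thus below both WT clones at 4 of 4 loci. The same held for 51.5, 50.9, 51.3 and 51.1% of tiles of the size of the IRF8, SPIB, POU2AF1 and MEF2B windows, so this order says little about these genes. Relative to WT, mean covered length was lower by 26.2% at IRF8 (11889.5 ± 101.1 against 16120.5 ± 1893.0, mean ± SD, n = 2 each), 25.7% at SPIB (6050.0 ± 1184.0 against 8137.5 ± 420.7), 14.0% at POU2AF1 (16505.0 ± 206.5 against 19186.0 ± 881.1) and 18.6% at MEF2B (14291.5 ± 1231.0 against 17546.5 ± 556.5). The exact two-sided permutation p was 0.333 for each gene, the smallest that 2 clones against 2 allow.

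CREBBP-KO and WT overlapped at all 4 loci. Mean covered length in CREBBP-KO was 14688.5 ± 427.8 bases at IRF8, 9142.5 ± 1432.0 at SPIB, 18095.0 ± 1838.0 at POU2AF1 and 18476.0 ± 1022.0 at MEF2B (mean ± SD, n = 2), which is 8.88% lower, 12.4% higher, 5.69% lower and 5.3% higher than WT. Both CREBBP-KO clones lay above both EP300-KO clones at each gene, by 23.5% of the mean at IRF8, 51.1% at SPIB, 9.63% at POU2AF1 and 29.3% at MEF2B. Both stood above in 37.8, 39.1, 37.8 and 39.2% of tiles of the IRF8, SPIB, POU2AF1 and MEF2B sizes too, so this order is also common.

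limma fitted log2(covered bases + 100) over all tiles of each window's size, after each clone was centred on its median over tiles covered in all clones. That centring takes out 0.21 to 0.23 (log2) of the EP300-KO to WT difference that the genome as a whole shows (a shift of -0.23 on the IRF8 grid and -0.21 on the others), so the fitted values are relative to it. No locus passed an adjusted p of 0.05 in any of the 3 comparisons. At an unadjusted p below 0.05 there was 1 locus in CREBBP-KO against EP300-KO (SPIB) and 0 in either comparison with WT. In EP300-KO against WT the log2 differences were -0.20 for IRF8 (SE 0.10, 95% interval -0.46 to 0.05, adjusted p = 0.26, limma), -0.23 for SPIB (-0.61 to 0.15), -0.01 for POU2AF1 (-0.18 to 0.17) and -0.08 for MEF2B (-0.34 to 0.17). The SPIB value rests on single clones: it was -0.03 without EP300-KO clone 1, -0.43 without EP300-KO clone 2, -0.35 without WT clone 1 and -0.11 without WT clone 2. The share of tiles called was 8.52, 7.96, 8.24 and 7.88% on the 4 grids in this comparison. For CREBBP-KO against WT the log2 differences were -0.01 (-0.27 to 0.24), 0.24 (-0.14 to 0.62), 0.01 (-0.16 to 0.18) and 0.15 (-0.11 to 0.41) for the same genes in that order, where 0.0285, 0.0184, 0.0238 and 0.00981% of tiles were called. Between the knock-outs, SPIB had the widest gap, 0.46 for CREBBP-KO over EP300-KO (SE 0.15, 95% interval 0.09 to 0.84, adjusted p = 0.11, limma), with 0.27 without EP300-KO clone 1 and 0.66 without EP300-KO clone 2. IRF8 differed there by 0.19 (-0.06 to 0.45), POU2AF1 by 0.02 (-0.16 to 0.19) and MEF2B by 0.23 (-0.03 to 0.49), with 14.2, 11.3, 12.9 and 11.7% of tiles called on the IRF8, SPIB, POU2AF1 and MEF2B grids. The median tile stood within 0.05 of 0 in each fit, at 0.05, 0.03, 0.03 and 0.03 on these grids for EP300-KO against WT.

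Split at 2 kb from the start site, mean coverage in EP300-KO was further below WT, in percent, in the distal part than at the promoter for each gene. At IRF8 and MEF2B the 2 kb on the gene side of the start were filled or nearly so in every clone. Their promoter percentages thus include many bases that could hardly vary. The outermost IRF8 promoter peak began at -0.087 and -0.072 kb in EP300-KO and at -0.629 and -0.405 kb in WT. In the 2 kb upstream of MEF2B the EP300-KO clones had no peak, and both WT clones had marked bases. The upstream 2 kb alone were not compared with the distal part. Within 2 kb of the IRF8 start, EP300-KO had 2087 and 2072 covered bases, CREBBP-KO 2247 and 2265 and WT 2493 and 2229. Farther out IRF8 had 9731 and 9889 in EP300-KO, 12139 and 12726 in CREBBP-KO and 14966 and 12553 in WT. The means in EP300-KO were 11.9% below WT at the IRF8 promoter and 28.7% below it in the distal part. At the SPIB promoter the clones had 1712 and 1970 bases in EP300-KO, 2294 and 2974 in CREBBP-KO and 2078 and 2189 in WT, so the 3 groups stood apart with WT in the middle. SPIB's mean in EP300-KO was 13.7% below WT at the promoter and 29.9% below it in the distal part. For SPIB the split depends on the width: with 5 kb on either side, the mean difference of EP300-KO from WT was -948.0 bases at the promoter and -1139.5 in the distal part, against -292.5 and -1795.0 with 2 kb. The POU2AF1 promoter window was nearly filled in every clone, with 4000 and 3896 of 4000 possible bases in EP300-KO, 3896 and 3898 in CREBBP-KO, and 3768 and 3886 in WT, so this measure could hardly vary there. EP300-KO was 3.16% above WT at the POU2AF1 promoter and 18.2% below it in the distal part, and with 5 kb on either side the promoter difference turned to -236.0 bases. MEF2B's promoter had 1975 and 1969 bases in EP300-KO, 1980 and 3010 in CREBBP-KO and 2481 and 2186 in WT. In EP300-KO the MEF2B mean was 15.5% below WT at the promoter and 19% below it in the distal part. How often promoters and distal parts differ in this way over the genome was not computed. The exact permutation p of each of these differences was 0.333, and the promoter and distal changes were not tested against each other.

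**Figure D2:**
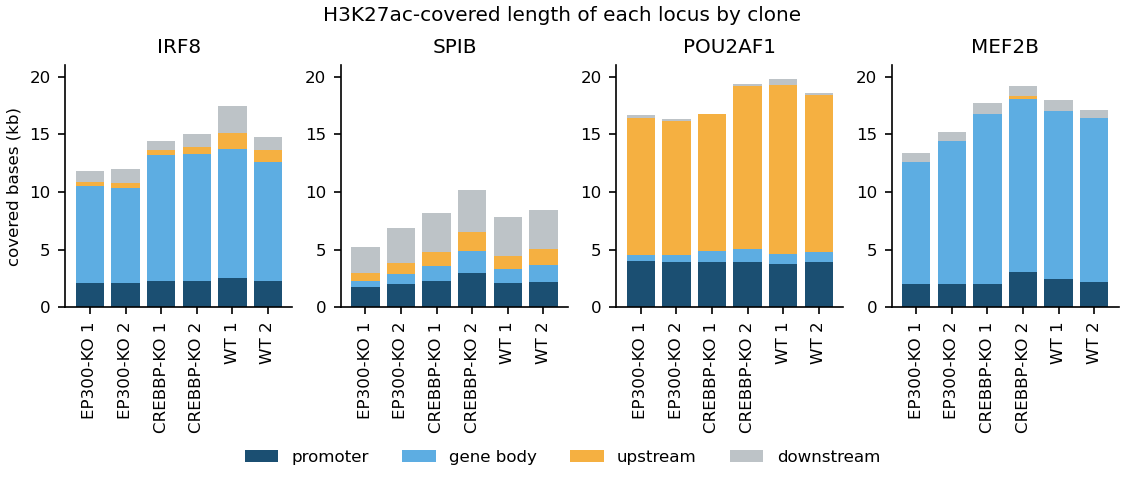
Covered kb of each locus in each clone, stacked by zone: within 2 kb of the start site (promoter), the rest of the gene (gene body), and upstream or downstream of both. The EP300-KO bars are the shortest at each gene. Against WT they are shorter mainly in the gene body at IRF8 and MEF2B and upstream at POU2AF1. Upstream of POU2AF1, CREBBP-KO clone 1 has as few bases (11916) as the EP300-KO clones (11919 and 11686).

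The test of single regions took those with 500 or more covered bases in 2 or more clones. Of the 43 members 22 passed that filter, among 19860 regions in all, and 21 did not. In EP300-KO against WT, 1 of the 22 was called (7.34% of all regions were), with 3 at an unadjusted p below 0.05. The median log2 difference was -0.05 over the 22 and 0.06 over all regions. CREBBP-KO against WT had 0 of 22 called by limma (0.0101% of all regions) and 2 at an unadjusted p below 0.05, with a median of 0.00 beside 0.02 over all regions. Of the 22, CREBBP-KO against EP300-KO called 1 (9.11% of all regions), with 5 at an unadjusted p below 0.05 and a median of 0.10 beside -0.04 over all regions. Calls among the 22 were thus not more frequent than over all regions in the comparisons that had any.

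The region called in EP300-KO was the isolated one upstream of IRF8 (chr16:85921847-85923242, 11 to 9.6 kb before the start). It had 350 and 474 covered bases in EP300-KO, 466 and 663 in CREBBP-KO and 1396 and 1090 in WT. In each of the 4 knock-out clones it was split in 2 peaks, and in each WT clone it was 1 peak. Coverage fell by 1.19 on the log2 scale in EP300-KO against WT (SE 0.18, 95% interval -1.65 to -0.73, adjusted p = 0.026, limma). The region met the filter through both WT clones and CREBBP-KO clone 2, and its span was that of the WT clone 1 peak. Both EP300-KO clones lay below the filter's minimum. Without the filter the region was still called (-1.19, adjusted p = 0.03, limma). The call ended without EP300-KO clone 1 (adjusted p = 0.066), CREBBP-KO clone 1 (0.058), CREBBP-KO clone 2 (0.062), WT clone 1 (0.09) or WT clone 2 (0.055), and with only the 4 clones compared (0.057). In CREBBP-KO against WT the same region had a log2 difference of -0.98 (95% interval -1.45 to -0.52, adjusted p = 0.26, limma), and between the knock-outs 0.21 (-0.26 to 0.67, adjusted p = 0.5). The EP300-KO and CREBBP-KO values share the WT clones and are not independent.

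Inside IRF8, the domain was split by a gap of 116 bases, 3.53 to 3.64 kb after the start, that no list covered. RefSeq's first internal IRF8 start, printed above, stands 3.67 kb after the gene's first base on the other build. Before the gap lay the start-site region (chr16:85932172-85936326), with 3580 and 3344 covered bases in EP300-KO, 3750 and 3769 in CREBBP-KO and 4019 and 3702 in WT. After it came the locus's widest region (chr16:85936443-85946089), with 6930 and 6977 bases in EP300-KO, 9448 and 9504 in CREBBP-KO and 9478 and 8868 in WT. Both EP300-KO clones were the lowest of the 6 in either region, an order whose share over all regions was not computed. After centring, the start-site region was not lower in EP300-KO than in WT (log2 0.05, 95% interval -0.21 to 0.31, adjusted p = 0.77, limma). The widest region's log2 difference in EP300-KO against WT was -0.19 (SE 0.10, 95% interval -0.45 to 0.06, adjusted p = 0.3, limma). Without centring it was -0.39 and passed (adjusted p = 0.018).

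The coverage that the EP300-KO clones lacked in the IRF8 domain lay mainly in its middle. In a stretch from 5.5 to 9.5 kb after the start, picked after its values were seen and given with no test, EP300-KO had 2021 and 1982 covered bases of 4000, CREBBP-KO 3847 and 3880 and WT 4000 and 3674. The peaks in that stretch numbered 6 and 5 in EP300-KO, 2 and 2 in CREBBP-KO and 1 and 3 in WT. A similar stretch in MEF2B from 3.8 to 8.6 kb, picked in the same way, had 2651 and 3571 of 4800 bases in EP300-KO, 4800 and 4800 in CREBBP-KO and 4800 and 4666 in WT. There the EP300-KO clones had 5 and 5 peaks, and each CREBBP-KO and WT clone had 1.

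Over the whole IRF8 locus the EP300-KO clones therefore had fewer covered bases in more peaks: 14 and 12 peaks, against 8 and 7 in CREBBP-KO and 9 and 9 in WT. MEF2B had 15 and 15 peaks in EP300-KO, 8 and 10 in CREBBP-KO and 11 and 10 in WT. This combination in both EP300-KO clones against both WT clones occurred in 1.34% of tiles of 150 kb and 1.61% of tiles of 60 kb. Over all tiles tested, the clone medians were 2159.0 to 2765.0 covered bases (150 kb) and 1575.5 to 1975.0 (60 kb), far below these loci. The share among tiles as marked as IRF8 or MEF2B was not computed. SPIB had 5 and 7 peaks in EP300-KO, 7 and 9 in CREBBP-KO and 7 and 6 in WT. POU2AF1 had 13 and 16, 13 and 15, and 18 and 19 in the same groups, so neither gene showed the combination. The combination was looked for after the peak maps were seen, and its 2 cases among 4 genes are a description. The lists differ in length, and the part of that in the peak counts was not tested beyond equal list lengths, where the mean difference in peaks (EP300-KO minus WT) was 4.5 for IRF8 and 5.0 for MEF2B, against 4.0 and 4.5 with the full lists.

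**Figure D3:**
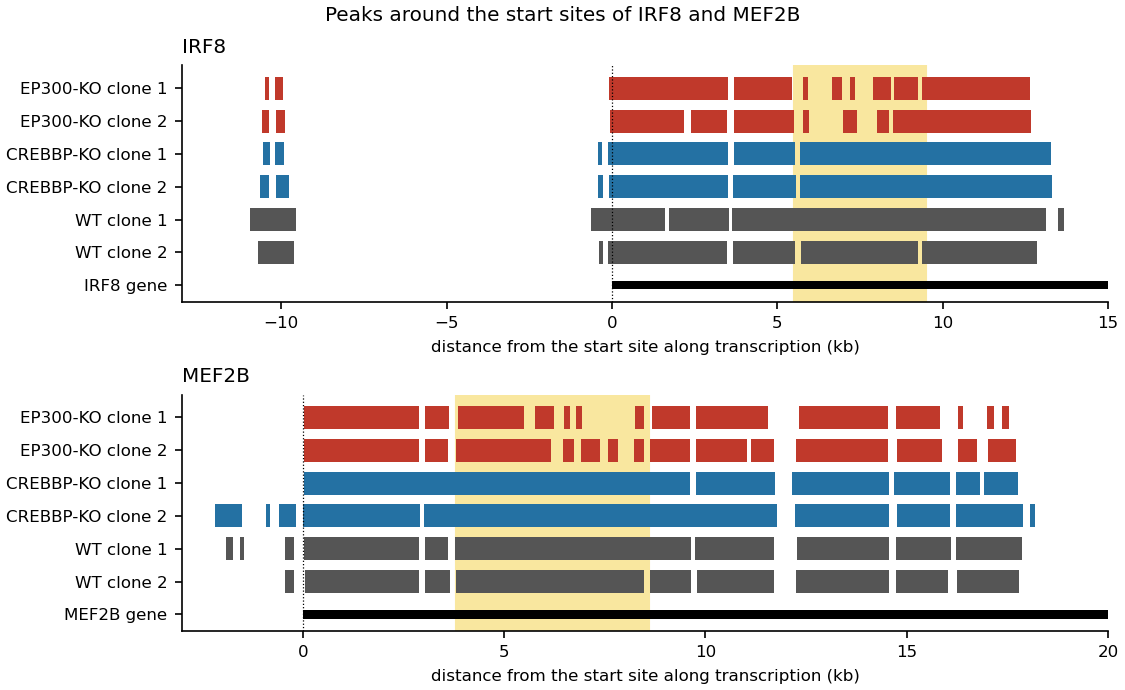
Peaks of each clone near the IRF8 and MEF2B start sites, against the distance along transcription in kb; the black bar is the gene, and the shaded stretches (5.5 to 9.5 kb and 3.8 to 8.6 kb) were picked after the values were seen. In the shaded parts both EP300-KO rows have 5 or more peaks with gaps between them, while each CREBBP-KO and WT row has 1 to 3 and is nearly filled.

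MEF2B's widest region (chr19:19269328-19281091) began at the start site and was also its start-site region. It had 8818 and 9784 covered bases in EP300-KO, 11552 and 11661 in CREBBP-KO and 11237 and 11031 in WT, without overlap of EP300-KO with the other groups. Its log2 difference in EP300-KO against WT was -0.06 (95% interval -0.34 to 0.23, adjusted p = 0.76, limma), since the centring removes a shift of -0.20 over all regions. Just upstream, 182 bases from 0.17 kb before to 0.01 kb after the start were covered in no list, and the octamer of the sequence above lies 74 bases before the start on the other build. With the hg19 start rounded to 0.1 kb, whether the octamer lies in this gap cannot be said. A further region on the upstream side (chr19:19281274-19281693) had 0 and 0 bases in EP300-KO, 0 and 420 in CREBBP-KO and 241 and 232 in WT. It is 1 of 3 member regions that both WT clones had and both EP300-KO clones lacked.

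At POU2AF1 the widest region was again the start-site region (chr11:111247985-111253626), and it was long in every clone. It had 5623 and 5398 covered bases in EP300-KO, 5514 and 5529 in CREBBP-KO and 5126 and 5469 in WT. EP300-KO overlapped both other groups, and both CREBBP-KO clones stood above both WT clones. The log2 difference in EP300-KO against WT was 0.26 (95% interval -0.03 to 0.54, adjusted p = 0.23, limma). Without centring the difference was 0.06, since the centring removes a shift of -0.20 over all regions. Directly downstream, 2.4 to 3.3 kb inside the gene, lay the region called between the knock-outs (chr11:111246936-111247838). It had 781 and 903 bases in CREBBP-KO, 337 and 380 in EP300-KO and 692 and 723 in WT, and no groups overlapped. Its coverage was higher in CREBBP-KO, by 0.87 on the log2 scale relative to EP300-KO (SE 0.14, 95% interval 0.52 to 1.23, adjusted p = 0.026, limma). With equal list lengths the difference was as large (0.88) but missed the threshold (SE 0.19, adjusted p = 0.066). The call also ended without EP300-KO clone 1 (0.098), CREBBP-KO clone 1 (0.1) or CREBBP-KO clone 2 (0.086). Against WT the log2 difference was -0.62 in EP300-KO (adjusted p = 0.066, limma) and 0.26 in CREBBP-KO (adjusted p = 0.69). The EP300-KO difference passed without centring (-0.82, adjusted p = 0.038) and without the trend of the variance (-0.62, adjusted p = 0.045). It did not pass with a pseudocount of 10 or 1000 bases (adjusted p = 0.074 and 0.092, limma) or without the filter (0.076). Nor did it pass with equal list lengths (-0.47, 0.24) or with only the 4 clones (0.1). With an EP300-KO or WT clone left out it was -0.68 to -0.53. Coverage above both WT clones in both CREBBP-KO clones and below them in both EP300-KO clones was seen in 4 of the 22 tested members, this one among them, and in 6.26% of all regions tested.

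**Figure D4:**
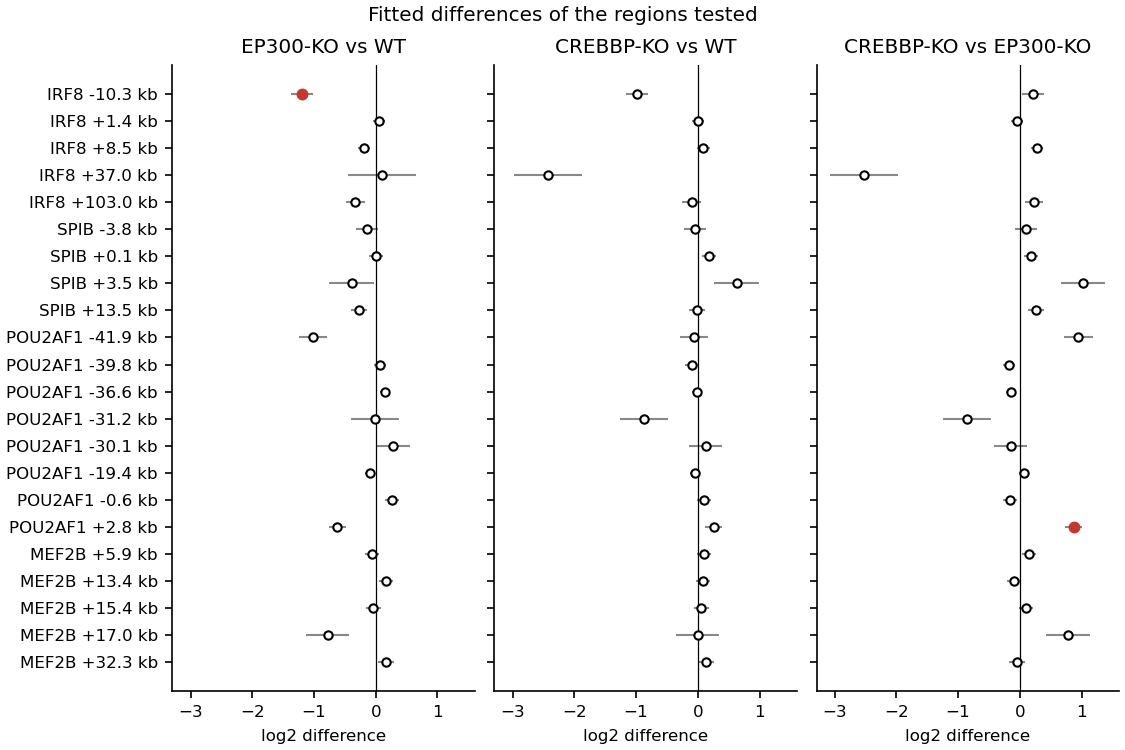
Fitted log2 differences in covered bases (points) with their standard errors (bars) for the 22 tested regions, named by gene and distance of their centre from the start site; filled points passed an adjusted p of 0.05 in limma. The 2 filled points are the IRF8 region 10.3 kb upstream in EP300-KO against WT and the POU2AF1 region 2.8 kb inside the gene in CREBBP-KO against EP300-KO.

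SPIB's start-site region (chr19:50921069-50923509) had 1712 and 1970 bases in EP300-KO, 2294 and 2441 in CREBBP-KO and 2078 and 2189 in WT. The widest SPIB region (chr19:50933590-50937839), 11.4 to 15.6 kb past the start and so mostly beyond the gene's end at 12.1 kb, had 2510 and 3313 bases in EP300-KO, 3629 and 4190 in CREBBP-KO and 4008 and 4094 in WT. Its log2 difference in EP300-KO against WT was -0.27 (95% interval -0.61 to 0.06, adjusted p = 0.27, limma). Without EP300-KO clone 1 it was -0.07, and without EP300-KO clone 2 it was -0.46. A region with peaks in the CREBBP-KO clones only was seen 2.2 to 1.9 kb upstream of SPIB (chr19:50920018-50920341), with 169 and 321 bases in the CREBBP-KO clones and 0 in both EP300-KO and both WT clones.

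Presence in both clones of 1 genotype and neither of another was rare and had no test. Of the 43 regions, 3 were in both WT and no EP300-KO clone (6.98%, against 9.15% of all regions), and the reverse held for 1 (2.33%, against 1.74%). With CREBBP-KO in place of EP300-KO the counts were 3 (6.98%, against 3.05%) and 2 (4.65%, against 1.25%). Between the knock-outs, 1 region had a peak in both EP300-KO and neither CREBBP-KO clone (against 2.79% of all regions) and 1 the reverse (against 6.5%).

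The region seen with EP300-KO and not CREBBP-KO lay 36.6 to 37.4 kb past the IRF8 start (chr16:85969444-85970181), near the long non-coding RNA gene LINC02132, which RefSeq places 36.1 to 37.0 kb from that start on GRCh38. It had 0 and 0 covered bases in CREBBP-KO, 314 and 531 in EP300-KO and 738 and 259 in WT. The fitted log2 difference was -2.42 in CREBBP-KO against WT (adjusted p = 0.32, limma) and -2.52 in CREBBP-KO against EP300-KO (adjusted p = 0.053), sizes that depend on the added 100 bases. With 10 added bases the second was -5.57 and passed (adjusted p = 0.016, limma). It also passed without the filter (0.046) or without the variance trend (0.043). It did not pass with 1000 added bases (-0.59, adjusted p = 0.098), without centring (-2.35, 0.068) or with equal list lengths (-2.51, 0.062). The region met the filter only through EP300-KO clone 2 and WT clone 1. Fits that lacked EP300-KO clone 2 or WT clone 1 therefore did not test it.

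Upstream of POU2AF1 a pair of small neighbouring regions had opposite patterns. The one from 3.9 to 3.6 kb before the start (chr11:111253849-111254072) had 123 and 99 bases in EP300-KO, 196 and 224 in CREBBP-KO and 0 in both WT clones. Its neighbour 58 bases farther out (chr11:111254131-111254449) had 0 bases in all 4 knock-out clones and 319 and 103 in WT. RefSeq lists RNU2-60P, a pseudogene of the U2 small nuclear RNA family, 3.94 to 3.82 kb upstream of POU2AF1 on GRCh38. Merging peaks across gaps of up to 500 bases, which leaves 20 member regions, removed both patterns. One more WT-only region lay 31.9 to 31.7 kb upstream (chr11:111281871-111282141), with 0 bases in all 4 knock-out clones and 256 and 169 in WT. It stood 107 bases from a region present in all 6 clones.

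Other regulators of germinal-centre B cells were read in windows of 50 kb on either side of their start sites, on a grid of 100-kb tiles. Of BCL6, BACH2, BCL11A, POU2F2, SPI1, ETS1, TCF3 and LMO2, 1 of 8 was called in EP300-KO against WT (lower, with 3 at an unadjusted p below 0.05; 8.23% of tiles), 0 in CREBBP-KO against WT (2 at an unadjusted p below 0.05, limma; 0.0238% of tiles) and 1 in CREBBP-KO against EP300-KO (higher, with 3 at an unadjusted p below 0.05; 12.9% of tiles). Both calls were ETS1, an ETS factor of lymphocytes, with 8136 and 8590 covered bases in EP300-KO, 13893 and 19037 in CREBBP-KO and 13741 and 12986 in WT. The ETS1 log2 difference was -0.46 in EP300-KO against WT (SE 0.09, adjusted p = 0.034, limma) and 0.84 in CREBBP-KO against EP300-KO (SE 0.09, adjusted p = 0.0084). The first call ended without centring (adjusted p = 0.076), with equal list lengths (0.058), without the variance trend (0.085), with only the 4 clones compared (0.053) and without any 1 of the 6 clones (0.057 to 0.21). The second ended without CREBBP-KO clone 2 (0.77, adjusted p = 0.052). BACH2, a repressor that restrains plasma cell differentiation, had 7465 and 13099 bases in EP300-KO, 20946 and 21477 in CREBBP-KO and 25280 and 17265 in WT (log2 -0.86 in EP300-KO against WT, adjusted p = 0.13, limma). The BACH2 value passed without EP300-KO clone 2 (-1.28, adjusted p = 0.042) and was -0.45 without EP300-KO clone 1. LMO2, a germinal-centre marker, had 1766 and 1865 in EP300-KO, 2300 and 3911 in CREBBP-KO and 3489 and 3226 in WT (log2 -0.64, adjusted p = 0.067). The LMO2 value passed with only the 4 clones (adjusted p = 0.044, limma). It did not pass without centring (0.11), with equal list lengths (0.057) or without the variance trend (0.11). With a clone left out it was -0.69 to -0.60. POU2F2, which encodes the OCT2 protein that holds POU2AF1 on DNA, had 11794 and 12658 bases in EP300-KO, 13637 and 16736 in CREBBP-KO and 13580 and 13417 in WT (log2 0.06 in EP300-KO against WT, adjusted p = 0.65, limma). SPI1, which encodes PU.1, had 8778 and 8694 in EP300-KO, 9002 and 10749 in CREBBP-KO and 10021 and 9619 in WT (log2 0.04, adjusted p = 0.77). At POU2F2 and SPI1 both EP300-KO clones had fewer covered bases than both WT clones. Their positive log2 values are relative to the shift of -0.21 that the centring removes on this grid. The median log2 difference over the 8 was 0.01 in EP300-KO against WT, beside 0.03 over all tiles.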

How the data were processed

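H3K27ac ChIP-seq was run on 6 clones with 6 inputs (12 samples). Per the submitters' processing notes, the authors used CASAVA 1.8, Bowtie2 2.1.0 and SAMtools 0.1.19 with hg19; the tool that called the peaks was not given in the sources used here. Per the file headers, each list sets 1 library against its own input. The deposited score per peak is the authors' own value with no stated meaning and served only to rank the peaks of 1 list. Read depth is unknown, so no interval covers it. Starts were read as counted from 0, so a printed start is uncertain by 1 base; adjacent peaks of a list are at least 101 bases apart.

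Covered bases per merged region or tile were compared with limma 3.58.1 (R 4.3.3): log2(covered bases + 100), centring per clone, features of 500 or more bases in 2 or more clones, a trend of the variance on the mean, all 6 clones in 1 fit and Benjamini-Hochberg adjustment over all features with a threshold of 0.05. The log2 scale with 100 added bases understates changes of short regions. The scripts were tested on simulated data. Start sites are hg19 general knowledge, since no hg19 annotation was used; their chromosomes matched RefSeq's GRCh38 table for 23 of 23 genes. One marker of the list is not reported here. Named regions are the widest and the start-site region of each locus, those past the threshold, and up to 3 per locus and comparison present in both clones of 1 group and neither of the other. The members and lists were chosen with earlier results of these data known. The 2 stretches inside IRF8 and MEF2B, the peak counts, the fit without the variance trend, the shares of regions and tiles with a given order of the clones, and the alternatives for ETS1, BACH2 and LMO2 were added after the values were seen. POU2AF1 is named without a promoter sequence. Alternatives are another pseudocount, no centring, no filter, equal list lengths (35054 peaks), 4 clones only, other promoter widths, other rules for a shared region, and each clone left out.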

Additional observations from a re-analysis of the deposited data

Results flagged for a closer look

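Results are listed here where the 2 knock-outs lay on different sides of WT or differed past the threshold. The region 2.4 to 3.3 kb inside POU2AF1 differed by 0.87 (log2, CREBBP-KO minus EP300-KO) and passed limma's test of that difference (adjusted p = 0.026), with all 4 knock-out clones outside the WT range in opposite directions. The window around ETS1 differed by 0.84 and passed too (adjusted p = 0.0084), though not without CREBBP-KO clone 2 (0.77, adjusted p = 0.052). In the remaining cases both CREBBP-KO clones lay above both WT clones and both EP300-KO clones below them, an order that 4 of the 22 tested members and 6.26% of all tested regions had. Its share among promoter windows or distal parts was not computed. The cases are not separate, since the SPIB promoter and the distal part of MEF2B share bases with the SPIB and MEF2B regions listed. The SPIB promoter had 793.0 more covered bases in CREBBP-KO than in EP300-KO on average and the distal part of MEF2B 3661.5 more; these differences were not tested beyond an exact permutation p of 0.333, the smallest possible. In the SPIB start-site region the mean difference was 526.5 bases (fitted log2 0.18, adjusted p = 0.34, limma) and in the widest MEF2B region 2305.5 bases (0.15, adjusted p = 0.42). In the MEF2B region 12.2 to 14.6 kb inside the gene it was 113.5 bases, and the fitted difference after centring had the other sign (-0.10, adjusted p = 0.61). With equal list lengths the SPIB promoter difference was again 793.0 bases, the distal MEF2B difference 3661.5 bases and the POU2AF1 difference 0.88 (adjusted p = 0.066, limma).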

How the results depend on the processing

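No paired analysis was possible because replicate numbers were given in accession order and pair no clones. None of the 156 alternative locus fits passed the threshold. Fitted locus values near 0 changed sign. For POU2AF1 in CREBBP-KO against WT the log2 difference was -0.02 with a pseudocount of 1000 bases and -0.09 without centring. Leaving out each clone in turn gave -0.04 to 0.06 there, -0.03 to 0.01 for POU2AF1 in EP300-KO against WT, -0.02 to 0.07 for POU2AF1 between the knock-outs, -0.14 to 0.11 for IRF8 in CREBBP-KO against WT, -0.17 to 0.01 for MEF2B in EP300-KO against WT and -0.12 to 0.03 for its widest region.

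With 5 kb on either side of the start, the POU2AF1 promoter difference was -236.0 bases in EP300-KO against WT and 593.5 between the knock-outs, and the SPIB distal difference in CREBBP-KO against WT was -89.0; with 1 kb the POU2AF1 promoter difference in CREBBP-KO against WT was -46.0. Leaving out clones gave -103.0 to 1.0 bases at the POU2AF1 promoter between the knock-outs and, in CREBBP-KO against WT, -237.0 to 27 at the IRF8 promoter, -353.5 to 676.5 at the MEF2B promoter, -168.0 to 1177.0 for distal SPIB and -2460.0 to 138.0 for distal POU2AF1.

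Member regions called in EP300-KO against WT numbered 3 without centring, 2 without the variance trend, 0 with only the 4 clones and 0 to 2 with a clone left out. Between the knock-outs they numbered 2 with a pseudocount of 10 or 1000 bases, without the filter or without the variance trend, 3 without centring, 0 with equal list lengths and 0 to 3 with a clone left out. Of the 8 other factors, EP300-KO against WT called 0 without centring, with equal list lengths or without the variance trend; leaving out clones gave 0 to 1 there and 0 to 2 between the knock-outs. Over all regions, CREBBP-KO against WT called 4 with a pseudocount of 1000 bases or without centring, 13 with equal list lengths, 58 without the variance trend and 0 with only the 4 clones. Leaving out clones gave 735 to 1499 (EP300-KO against WT), 0 to 239 (CREBBP-KO against WT) and 382 to 1956 (between the knock-outs).

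Regions in both WT and neither EP300-KO clone numbered 5 when at least 50% of a region had to be covered, 1 with equal list lengths, 0 when merged across gaps of 500 bases and 3 to 9 with a clone left out. The reverse count was 0 under both the 50% and the gap rule. Regions in both WT and neither CREBBP-KO clone numbered 1 with equal list lengths or the gap rule and 3 to 8 with a clone left out; the reverse numbered 0 with the gap rule and 2 to 7. EP300-KO without CREBBP-KO gave 0 under the 50% rule and 1 to 2 with a clone left out; CREBBP-KO without EP300-KO gave 3 under the 50% rule, 0 with the gap rule and 1 to 10. The cause of these changes was not tested. Each genotype has 2 clones and the read depth is unknown, which limits every comparison here.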
